A study of Caenorhabditis elegans with 4 samples.

Results

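Gene expression in adult Caenorhabditis elegans under low oxygen was compared between the library labelled elt-2 RNAi and the control RNAi library, 1 library each, among 4 libraries in the series. Both libraries came from whole animals of the wild-type strain N2, synchronized, grown at 20 °C on modified RNAi plates to day 1 of adulthood and then held for 36 h at 0.5% oxygen in nitrogen. Animals of the library labelled elt-2 RNAi were fed bacteria carrying the elt-2 RNAi construct, and control animals were fed the empty vector. The other 2 libraries have the same foods and no hypoxia, and share no library with the hypoxia pair. Of 19852 loci, 10737 were compared: those naming 1 gene, with no failed or out-of-range estimate in the deposited comparison, and with a mean of at least 1 RPKM (read counts scaled by transcript length and library size) over the 2 hypoxia libraries. Of the remaining loci, 334 named several genes, 5 others had an unusable status and 8776 lay below the filter. Of all loci naming 1 gene, 3057 were at 0 in both hypoxia libraries. Differences are log2 ratios of (RPKM + 1), labelled elt-2 RNAi over control RNAi, so that a positive value means higher in the library labelled elt-2 RNAi. With 1 library per group there is no replicate error and no test of any difference, and the labels do not say whether the libraries came from separate cultures.

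ELT-2 is a GATA-type zinc finger transcription factor made in the worm intestine from early embryogenesis through adulthood. It binds GATA sequences in the promoters of a large share of intestinal genes, among them those for digestive enzymes, antimicrobial effectors, metal-binding proteins and yolk. The intestine is the worm's organ of digestion, fat storage, detoxification and contact with swallowed bacteria. RNAi by feeding supplies double-stranded RNA of the target gene through the food and lowers the matching transcript by the animal's own RNA interference machinery.

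The targeted gene went against its label. The elt-2 gene (chromosome X, 10481180 to 10483367, build ce10) was listed at 23.8 RPKM in labelled elt-2 RNAi hypoxia and 15.2 RPKM in control RNAi hypoxia, and in normoxia at 14.3 RPKM in labelled elt-2 RNAi and 4.81 RPKM in control RNAi. Its log2 ratio was 0.62 in hypoxia and 1.40 in normoxia. Every direction below therefore rests on the label of the library and not on a lower elt-2 value. The paralogue elt-7, which acts beside elt-2 in the intestine, was at 12.84 RPKM in labelled elt-2 RNAi and 16.1 RPKM in control RNAi (log2 ratio -0.30), and elt-4 at 3.36 and 6.10 RPKM in the same order (-0.71). The epidermal GATA factors elt-1 and elt-3 had log2 ratios of -0.08 and -0.36, and egl-27, a regulator with a GATA-type zinc finger, had 0.30. None of these 6 compared GATA genes was past 2-fold in hypoxia.

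The oxygen labels could be set against F22B5.4, a target of HIF-1, the hypoxia-inducible factor. It was at 535.5 RPKM in labelled elt-2 RNAi and 384 RPKM in control RNAi under hypoxia, and at 1.2996 and 0.734 RPKM in the same order in normoxia. Both hypoxia libraries were far above both normoxia libraries. Labelled elt-2 RNAi hypoxia had 10775 loci at 1 RPKM or more and control RNAi hypoxia 11048. Ribosomal protein genes held 24.7% of the summed RPKM of the compared genes in labelled elt-2 RNAi and 24.95% in control RNAi. The tables give no read totals, so absolute depth is unknown. In whole-animal RNA, fewer cells of a type and less RNA per cell cannot be told apart.

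More genes were lower than higher in labelled elt-2 RNAi. In hypoxia, 562 of 10737 genes (5.23%) were at least 2-fold lower in labelled elt-2 RNAi than in control RNAi and 210 (1.96%) at least 2-fold higher, while 9965 lay within 2-fold. Past 4-fold there were 220 lower and 38 higher genes, and past 16-fold 34 lower and 3 higher. The median log2 ratio of all compared genes was 0.05, with quartiles of -0.17 and 0.21, so the excess of lower genes lay in the tail and not in the bulk of genes. The 562 lower genes held 1.64% of the summed RPKM of the compared genes in labelled elt-2 RNAi and 6.22% in control RNAi. The 210 higher genes held 1.605% in labelled elt-2 RNAi and 0.495% in control RNAi. Lower genes made up 7.38% of the genes with a mean of 1 to 5 RPKM and 3.53% of those at 100 RPKM or more, where higher genes made up 2.55% and 1.36%.

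**Figure D1:**
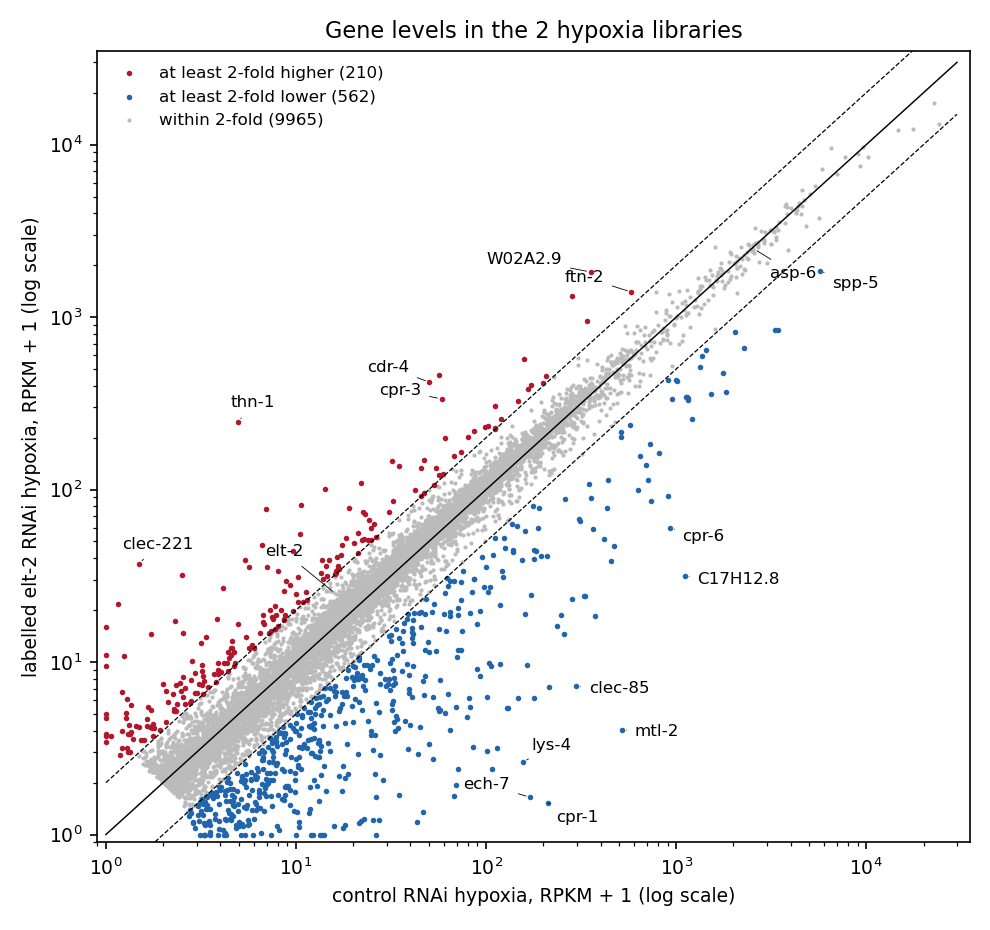
RPKM + 1 of each of the 10737 compared genes in labelled elt-2 RNAi hypoxia (vertical, log scale) against control RNAi hypoxia (horizontal, log scale). The solid line marks equal levels and the dashed lines 2-fold; the 562 lower genes (blue) reach much further from the line than most of the 210 higher genes (red), of which thn-1 and clec-221 lie farthest of those named.

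The lowest ratio was that of cpr-1, a cathepsin B-like cysteine protease (chromosome V, 11975496 to 11976736). It was at 0.526 RPKM in labelled elt-2 RNAi and 209.9 RPKM in control RNAi under hypoxia, and at 0.775 and 27.3 RPKM in the same order in normoxia. Both control RNAi libraries were far above both labelled ones, and the hypoxia log2 ratio was -7.11. The same separation of both labelled libraries from both controls held for all 15 genes with the lowest ratios among genes averaging 5 RPKM or more. After cpr-1 these were mtl-2, ech-7, lys-4, asp-13, clec-85, K08D8.5, cyp-35A3, spp-1, F32H5.1, C17H12.8, clec-67, gsto-1, clec-47 and spp-4. They encode proteases, antimicrobial proteins, lectins, a metallothionein and enzymes of detoxification and lipid metabolism, and are taken up by group below. Over all compared genes, both labelled libraries lay below both controls for 9.95% and above both for 14.2%. Of the 562 genes lower in hypoxia, 422 had both labelled libraries below both controls, and of the 210 higher genes 87 had both above. These genes and the 15 lowest were chosen by their hypoxia ratio, which fixed the order of the hypoxia pair in advance. The shares over all genes carry no such choice and are not a like baseline.

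Digestive proteases were among the groups with the largest shares of lower genes. The counts of each list below stand against 5.23% lower and 1.96% higher over all compared genes. Of 15 loci for cathepsin-like cysteine proteases, which degrade dietary protein in the gut lumen and lysosomes, 13 were compared: 8 were at least 2-fold lower, 1 was higher and the median log2 ratio was -1.86. Their summed level was 2010 RPKM in labelled elt-2 RNAi and 3944 RPKM in control RNAi. Beside cpr-1, the protease gene F32H5.1 was at 2.19 RPKM in labelled elt-2 RNAi and 113 RPKM in control RNAi (-5.16), cpz-2 at 2.23 and 84.6 RPKM (-4.73), and cpr-5 at 4.41 and 129 RPKM (-4.58). The abundant cpr-6 was at 58.8 RPKM in labelled elt-2 RNAi and 928 RPKM in control RNAi under hypoxia, and at 108 and 906 RPKM in the same order in normoxia, with a hypoxia ratio of -3.96. The lysosomal cathepsin L gene cpl-1 stayed within 2-fold at 783 and 1080 RPKM (-0.46), as did the cathepsin Z gene cpz-1 (0.49) and cpr-4 (0.10).

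One cysteine protease went the other way. cpr-3 was at 334 RPKM in labelled elt-2 RNAi and 57.3 RPKM in control RNAi under hypoxia, and at 41.0 and 17.3 RPKM in the same order in normoxia, with log2 ratios of 2.52 and 1.195. Under hypoxia the labelled library had cpr-3 above cpr-6, whereas in both control RNAi libraries and in labelled elt-2 RNAi normoxia cpr-6 was above cpr-3.

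Aspartic proteases, a second class of gut and lysosomal protease, had 9 of 16 loci compared, with 6 lower, 1 higher and a median log2 ratio of -2.32. The gene asp-13 was at 1.40 RPKM in labelled elt-2 RNAi and 107 RPKM in control RNAi (-5.49), and asp-2 at 50.4 and 416 RPKM (-3.02). Among the most abundant members, asp-5 was at 365 RPKM in labelled elt-2 RNAi and 1833 RPKM in control RNAi (-2.32), asp-1 at 475 and 1767 RPKM (-1.89), and asp-3 at 161 and 808 RPKM (-2.32). By contrast asp-6, the most abundant of the class in labelled elt-2 RNAi, was at 2494 RPKM there and 2549 RPKM in control RNAi (-0.03). The lysosomal protease asp-4 had a log2 ratio of -0.64, and asp-12 was higher, at 65.2 RPKM in labelled elt-2 RNAi and 23.2 RPKM in control RNAi (1.45). The summed level of the class was 3862 RPKM in labelled elt-2 RNAi and 7900 RPKM in control RNAi.

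Saposin-like proteins, small membrane-active peptides that lyse bacteria in the gut, had 18 of 25 loci compared, with 12 at least 2-fold lower, none higher and a median log2 ratio of -1.79. The amoebapore-like gene spp-1 was at 0.927 RPKM in labelled elt-2 RNAi and 68.7 RPKM in control RNAi (-5.18), spp-4 at 6.21 and 211.9 RPKM (-4.88), and spp-18 at 4.49 and 81.6 RPKM (-3.91). The most abundant member, spp-5, was at 1849 RPKM in labelled elt-2 RNAi and 5683 RPKM in control RNAi under hypoxia, and at 1142 and 2740 RPKM in the same order in normoxia. It was among the genes with the largest drop in RPKM, with spp-3 at 836 RPKM in labelled elt-2 RNAi and 3432 RPKM in control RNAi. The members within 2-fold included spp-10 (0.18), spp-15 (-0.09) and spp-16 (-0.28). The family summed to 4850 RPKM in labelled elt-2 RNAi and 14807 RPKM in control RNAi.

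Lysozymes, which cut bacterial cell walls, had 8 of 16 loci compared, with 5 at least 2-fold lower, none higher and a median log2 ratio of -1.79. The gene lys-4 was at 1.63 RPKM in labelled elt-2 RNAi and 155 RPKM in control RNAi under hypoxia, and at 1.35 and 29.04 RPKM in the same order in normoxia. Under hypoxia lys-1 was at 90.2 RPKM in labelled elt-2 RNAi and 908 RPKM in control RNAi (-3.32), lys-7 at 40.2 and 192 RPKM (-2.23), and the invertebrate-type lysozyme ilys-5 at 358 and 1520 RPKM (-2.08). The fifth was lys-2, at 334 and 948 RPKM (-1.50). The other compared lysozymes, lys-3, lys-8 and ilys-4, had log2 ratios of -0.86, -0.81 and -0.05.

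C-type lectins, sugar-binding proteins of which many are secreted in the gut and induced by pathogens, were the largest defence family. Of 255 loci, 194 fell below the filter and 61 were compared, with 28 at least 2-fold lower, 3 higher and a median log2 ratio of -0.94. The gene clec-85 was at 6.22 RPKM in labelled elt-2 RNAi and 297 RPKM in control RNAi under hypoxia, and at 6.52 and 337 RPKM in the same order in normoxia (-5.37 in hypoxia). Next came clec-67, an infection-response gene, at 0.354 RPKM in labelled elt-2 RNAi and 45.3 RPKM in control RNAi (-5.10), and clec-47 at 1.39 and 69.8 RPKM (-4.89). The most abundant lectin in labelled elt-2 RNAi, clec-87, was at 2054.5 RPKM there and 1723 RPKM in control RNAi (0.25), and clec-63 at 595 and 1369 RPKM (-1.201). The highest ratio in the family was that of clec-221, at 36.2 RPKM in labelled elt-2 RNAi and 0.495 RPKM in control RNAi under hypoxia, and at 1.03 and 0.657 RPKM in the same order in normoxia. The summed level of the compared lectins was 5725 RPKM in labelled elt-2 RNAi and 8109 RPKM in control RNAi.

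Some infection-response genes were lower, and the genes of the p38 MAP kinase cascade, a pathway of innate immunity, were within 2-fold. The list of p38 MAP kinase cascade genes and infection-response outputs had 18 of 19 loci compared, with 7 lower, none higher and a median log2 ratio of -0.46. C17H12.8, an infection-response gene, was at 30.6 RPKM in labelled elt-2 RNAi and 1110 RPKM in control RNAi under hypoxia, and at 26.5 and 551 RPKM in the same order in normoxia (-5.14 in hypoxia). K08D8.5, a CUB-like gene, was at 0.679 RPKM in labelled elt-2 RNAi and 66.8 RPKM in control RNAi (-5.33). T24B8.5 (now sysm-1), a reporter of p38 signalling, was at 5.16 and 146 RPKM (-4.57), and irg-3 (F53E10.4) at 10.8 and 46.8 RPKM (-2.02). The other infection-response genes past 2-fold were mul-1 (F49F1.6), F35E12.5 and irg-4 (F08G5.6), with ratios of -1.88, -1.21 and -1.19. Within 2-fold were irg-7 (F40F4.6), irg-1 (C07G3.2), F35E12.8, irg-2 (C49G7.5) and C07G1.7, at -0.69, -0.53, -0.39, -0.06 and 0.70. The kinases pmk-1, sek-1 and nsy-1 had log2 ratios of -0.02, -0.05 and 0.27, their adaptor tir-1 had -0.11 and the transcription factor atf-7 had -0.21, while the phosphatase gene vhp-1 had 0.63.

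The dod and CUB-like genes, named as downstream of the insulin-pathway factor DAF-16 or for a protein domain, had 23 of 33 loci compared, with 9 lower, 3 higher and a median of -0.51. Lower members included C32H11.4 (-3.91), dod-21 at 0.127 RPKM in labelled elt-2 RNAi and 14.8 RPKM in control RNAi (-3.81), dod-24 at 58.1 and 363 RPKM (-2.62), and dod-3 at 155 and 641 RPKM (-2.04). C32H11.9 (now cld-1) was listed at 0 in labelled elt-2 RNAi and at 11.3 RPKM in control RNAi. Higher members were dod-17, K08D8.3 and F55G11.6, with log2 ratios of 1.28, 1.28 and 1.201.

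**Figure D2:**
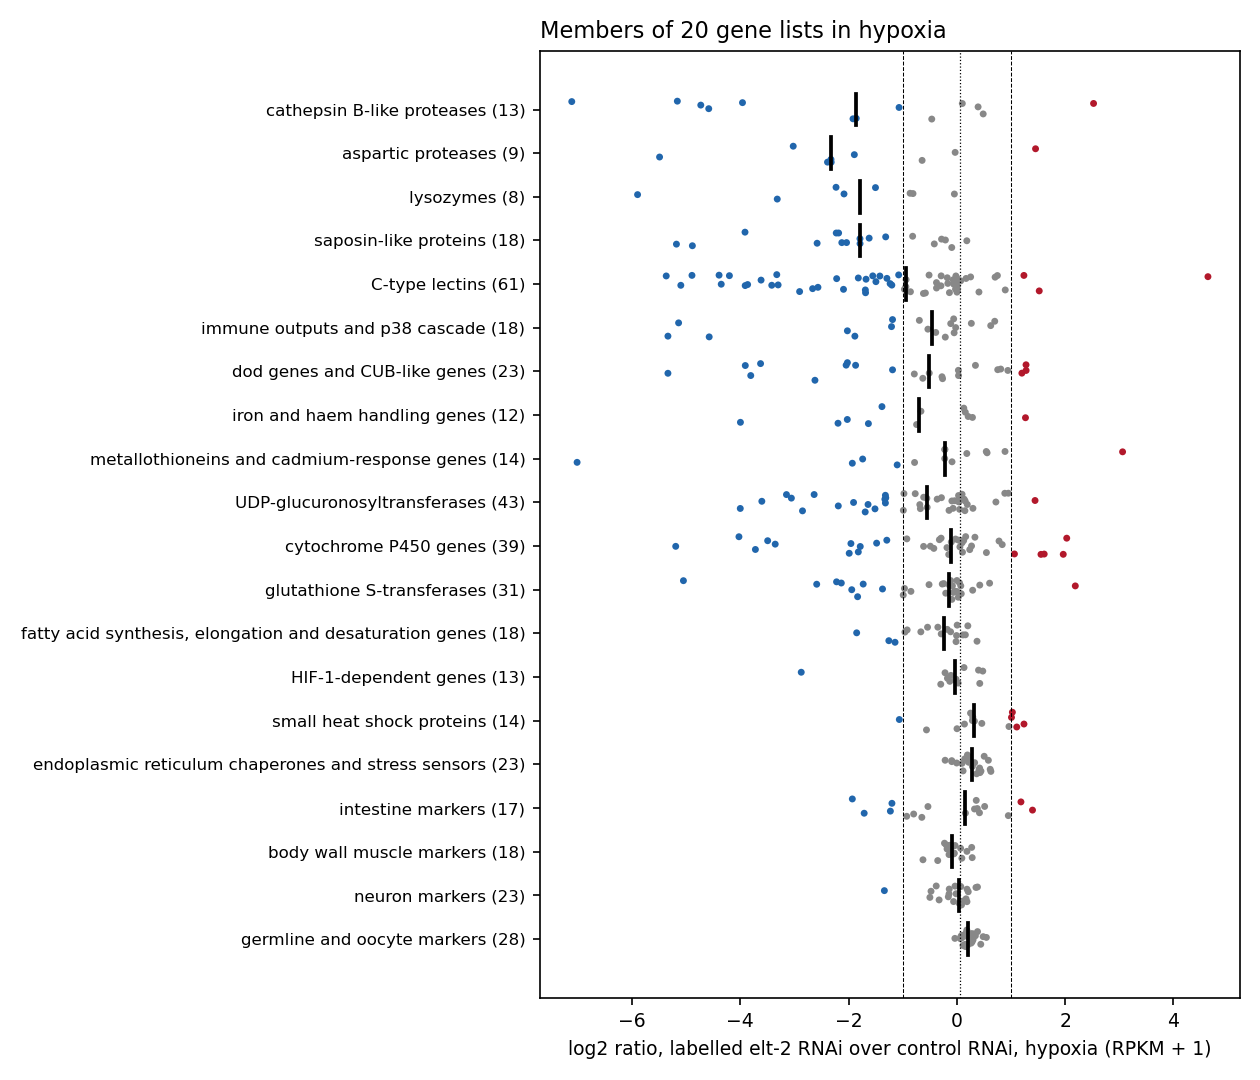
Hypoxia log2 ratios (labelled elt-2 RNAi over control RNAi, RPKM + 1) of the compared members of 20 gene lists, 1 point per gene, with the number compared in brackets and the list median as a bar. Dashed lines mark 2-fold and the dotted line the median of all genes, 0.05; protease, saposin-like and lysozyme lists have medians between -2.32 and -1.79, and the marker lists of muscle, neurons and germline have medians between -0.09 and 0.20. Embryo, sperm and epidermis markers, which are not among the lists plotted, have medians of -0.49, -0.34 and -0.24.

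Not every antimicrobial gene was lower. The thaumatin-like gene thn-1 had the highest ratio of all genes averaging 5 RPKM or more. It was at 245 RPKM in labelled elt-2 RNAi and 3.98 RPKM in control RNAi under hypoxia, and at 41.3 and 3.07 RPKM in the same order in normoxia, with a hypoxia ratio of 5.63. Its compared relative thn-2 was at 29.04 RPKM in labelled elt-2 RNAi and 49.4 RPKM in control RNAi under hypoxia (-0.75), although in normoxia its ratio was 1.41. Epidermal antimicrobial peptides of the nlp and cnc families, made in the skin in response to fungal infection and wounding, had 17 of 22 loci compared, with 2 higher, none lower and a median of 0.29. The 2 higher were cnc-7, at 155 RPKM in labelled elt-2 RNAi and 67.2 RPKM in control RNAi (1.196), and cnc-6, at 16.8 and 6.57 RPKM (1.24).

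Genes for metal handling differed in both directions. The metallothionein mtl-2, which binds zinc and cadmium (chromosome V, 14018257 to 14018628), was at 3.04 RPKM in labelled elt-2 RNAi and 520.2 RPKM in control RNAi under hypoxia, and at 9.01 and 529 RPKM in the same order in normoxia. Its hypoxia log2 ratio was -7.01. The other metallothionein, mtl-1, was at 113 RPKM in labelled elt-2 RNAi and 434 RPKM in control RNAi (-1.93). The cadmium-response gene cdr-4 was the opposite, at 419 RPKM in labelled elt-2 RNAi and 49.3 RPKM in control RNAi under hypoxia, and at 107 and 39.7 RPKM in the same order in normoxia (3.06 in hypoxia). The zinc-sensing nuclear receptor hizr-1 (listed as nhr-33) had a ratio of -1.102, and the zinc transporter zipt-2.3 (listed as Y54G9A.4) of -1.74. The list had 14 of 15 loci compared, with 4 lower, 1 higher and a median of -0.22.

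The ferritins, which store iron, went apart from each other. The intestinal ferritin ftn-1 was at 3.06 RPKM in labelled elt-2 RNAi and 63.7 RPKM in control RNAi under hypoxia, and at 0.0692 and 3.80 RPKM in the same order in normoxia (-3.996 in hypoxia). The second ferritin gene, ftn-2, was at 1396 RPKM in labelled elt-2 RNAi and 579 RPKM in control RNAi under hypoxia, and at 405 and 344 RPKM in the same order in normoxia (1.27 in hypoxia). Among haem and iron transporters, smf-3 was at 4.77 RPKM in labelled elt-2 RNAi and 25.4 RPKM in control RNAi (-2.19), hrg-4 at 14.1 and 60.5 RPKM (-2.02), and hrg-1 at 59.2 and 186 RPKM (-1.63). C15C8.3, an aspartic protease-like gene of haem signalling, was at 513 and 1340 RPKM (-1.38), and the haem exporter gene mrp-5 was within 2-fold (0.21). Of 16 iron and haem loci, 12 were compared, with 5 lower, 1 higher and a median of -0.70.

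**Figure D3:**
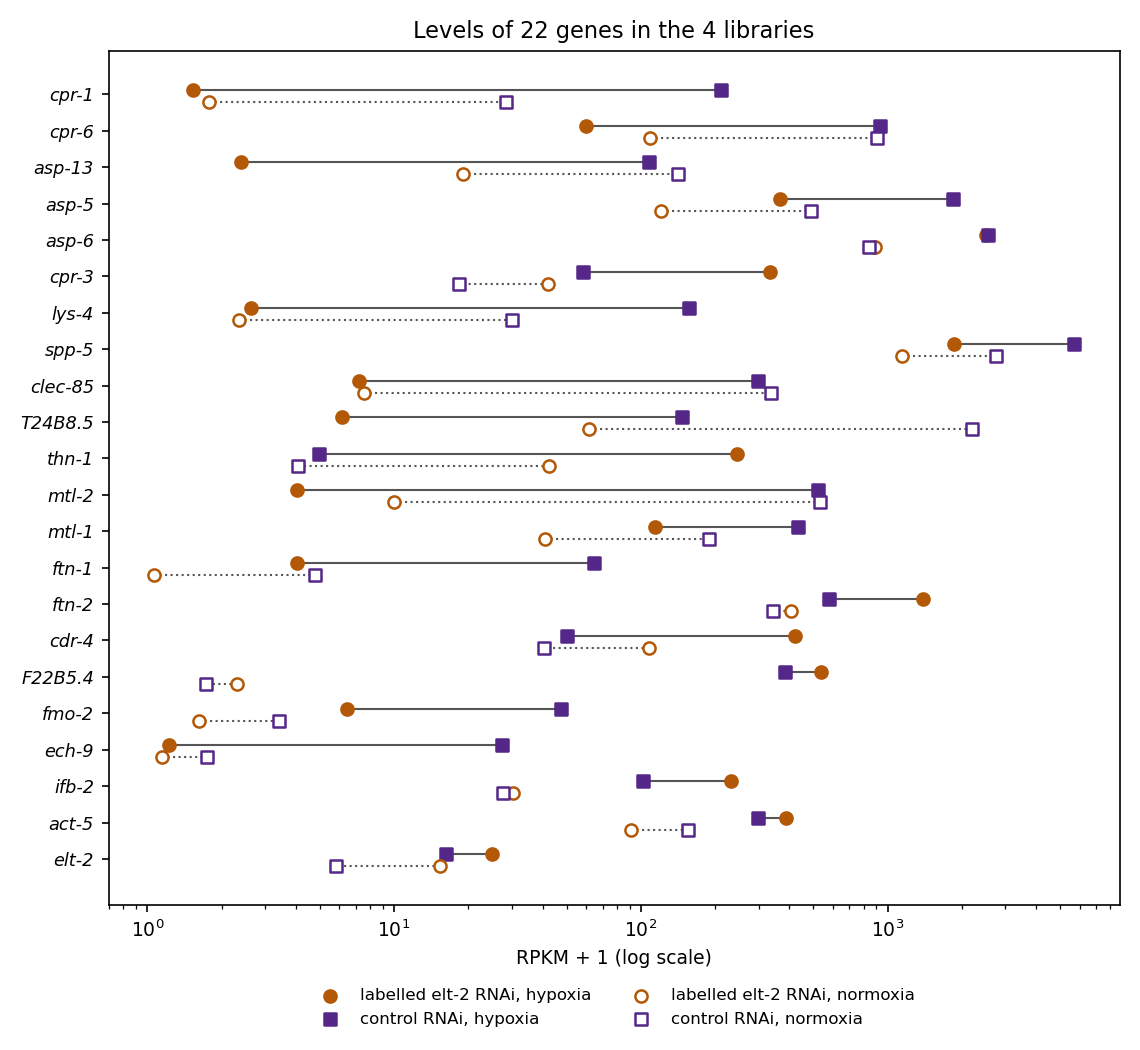
Levels of 22 genes in the 4 libraries as RPKM + 1 (log scale), with labelled elt-2 RNAi as circles and control RNAi as squares, filled for hypoxia and open for normoxia; 1 library stands behind each symbol. From cpr-1 to asp-5 and for lys-4, spp-5, clec-85, T24B8.5, mtl-2, mtl-1 and ftn-1, each circle lies left of the square of the same oxygen level; for thn-1, cdr-4, cpr-3 and ftn-2 each lies right of it, and elt-2 is also higher in labelled elt-2 RNAi.

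Enzymes that modify foreign and fat-soluble compounds were lower in part. Of 65 UDP-glucuronosyltransferase loci, 43 were compared, with 15 lower, 1 higher and a median log2 ratio of -0.55. The gene ugt-22 was at 8.74 RPKM in labelled elt-2 RNAi and 117 RPKM in control RNAi (-3.60), ugt-65 at 0.324 and 10.7 RPKM (-3.15), and ugt-5 at 1.26 and 17.8 RPKM (-3.06), while the most abundant, ugt-62, was at 91.9 and 135 RPKM (-0.55). Of 75 cytochrome P450 loci, 39 were compared, with 11 lower, 5 higher and a median of -0.10. The 4 lowest ratios were all of the cyp-35 subfamily, whose members are induced by xenobiotics. They were picked by their ratio, and other members of the subfamily are not listed here. cyp-35A3 was at 0.180 RPKM in labelled elt-2 RNAi and 42.1 RPKM in control RNAi (-5.19), cyp-35A4 at 0.0888 and 16.7 RPKM (-4.02), cyp-35A2 at 17.7 and 245 RPKM (-3.72), and cyp-35C1 at 7.29 and 92.3 RPKM (-3.49). At the other end were cyp-33C8 at 76.8 RPKM in labelled elt-2 RNAi and 18.1 RPKM in control RNAi (2.03) and cyp-13A5 at 135 and 33.9 RPKM (1.96).

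Glutathione S-transferases had 31 of 49 loci compared, with 8 lower, 1 higher and a median of -0.14. The omega-class gene gsto-1 was at 2.05 RPKM in labelled elt-2 RNAi and 99.8 RPKM in control RNAi under hypoxia, and at 0.263 and 11.5 RPKM in the same order in normoxia (-5.05 in hypoxia). gst-6 was at 6.77 RPKM in labelled elt-2 RNAi and 45.7 RPKM in control RNAi (-2.59) and gst-10 at 0.906 and 7.89 RPKM (-2.22). The one higher member was gst-22, at 145 and 31.1 RPKM (2.19), and the abundant gst-1 was at 465 and 476 RPKM (-0.03). No superoxide dismutase, catalase or peroxiredoxin gene was past 2-fold among 14 compared (median -0.04), ctl-2 at -0.94 being the lowest.

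Lipid genes were mostly within 2-fold, with a few far below the control. Of 43 compared genes for fatty acid activation and beta-oxidation, 5 were lower and none higher (median -0.13). The enoyl-CoA hydratase gene ech-7 was at 0.645 RPKM in labelled elt-2 RNAi and 169 RPKM in control RNAi under hypoxia, and at 0.452 and 50.1 RPKM in the same order in normoxia (-6.70 in hypoxia). Its relative ech-9 was at 0.219 RPKM in labelled elt-2 RNAi and 26.3 RPKM in control RNAi under hypoxia (-4.49), but was near the bottom of the scale in both normoxia libraries, at 0.143 and 0.738 RPKM in that order. The acyl-CoA dehydrogenase gene acdh-1 had a ratio of -2.50 and the acyl-CoA synthetase gene acs-2 of -2.15.

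Genes that make, elongate and desaturate fatty acids had 18 of 20 loci compared, with 3 lower, none higher and a median of -0.23. The 3 were desaturases: fat-7 at 0.377 RPKM in labelled elt-2 RNAi and 3.96 RPKM in control RNAi (-1.85), fat-4 at 424 and 1015 RPKM (-1.26), and fat-6 at 646 and 1426 RPKM (-1.14). The abundant fat-2 and fat-1 had ratios of -0.54 and -0.92. Of the lysosomal lipases lipl-2 was at 0.574 RPKM in labelled elt-2 RNAi and 12.3 RPKM in control RNAi (-3.08) and lipl-5 at 77.4 and 431 RPKM (-2.46), and the other 3 compared were within 2-fold. Of 16 compared lipid-binding protein genes, lbp-7 (-2.63) and lbp-8 (-1.55) were lower and the abundant far-2 and lbp-9 were both at -0.05. The 3 yolk protein genes compared, vit-1, vit-3 and vit-4, had ratios of -0.11, 0.19 and 0.05 in hypoxia. In normoxia the same genes had ratios of -0.78, -0.95 and -0.95, within 2-fold but lower in labelled elt-2 RNAi. The other vitellogenins, vit-2, vit-5 and vit-6, were listed at 0 in both hypoxia libraries with an out-of-range status and were not compared.

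Among transporters, the sugar transporter gene swt-6 (listed as R10D12.9) was at 1.75 RPKM in labelled elt-2 RNAi and 51.6 RPKM in control RNAi (-4.26), the lowest of 20 compared nutrient transporters, of which 3 were lower and 1 higher (median -0.03). ABC transporters had 37 loci compared, with 7 lower, 1 higher and a median of -0.08. Of the half-transporters that act in lysosome-related gut granules, haf-4 was at 0.800 RPKM in labelled elt-2 RNAi and 13.4 RPKM in control RNAi, and haf-9 at 2.26 and 12.5 RPKM (log2 ratio -2.05). haf-7 was higher, at 32.5 RPKM in labelled elt-2 RNAi and 7.01 RPKM in control RNAi (2.07). Of 18 vacuolar ATPase subunit genes only vha-6, the subunit of the apical gut membrane, was past 2-fold, at 43.5 RPKM in labelled elt-2 RNAi and 137 RPKM in control RNAi (-1.63). The transthyretin-related gene ttr-46 was at 17.6 and 372 RPKM (-4.33), in a family of 42 compared genes with 5 lower and 2 higher.

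Of 13 compared HIF-1-dependent genes, 1 was lower, none was higher and the median was -0.03. The flavin monooxygenase gene fmo-2 was at 5.46 RPKM in labelled elt-2 RNAi and 46.4 RPKM in control RNAi under hypoxia, and at 0.625 and 2.42 RPKM in the same order in normoxia (-2.87 in hypoxia). hif-1 itself had a ratio of 0.02, its hydroxylase egl-9 of -0.13, rhy-1 of -0.03, the collagen prolyl hydroxylase phy-2 of -0.11, and F22B5.4 of 0.48.

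Some small heat shock protein genes were higher, and the other chaperone genes were within 2-fold. Of 14 compared small heat shock protein loci, 4 were at least 2-fold higher, 1 was lower and the median was 0.31, beside 1.96% higher and a median of 0.05 over all genes. The gene hsp-17 was at 405.5 RPKM in labelled elt-2 RNAi and 171 RPKM in control RNAi under hypoxia (1.24), and at 40.2 and 77.6 RPKM in the same order in normoxia. The 2 loci listed as hsp-16.1 had ratios of 1.01 and 1.02, and hsp-16.49 one of 1.11. These genes come in near-identical pairs between which reads can be split, so they are uncertain as single genes. The 23 compared endoplasmic reticulum chaperones and stress sensors all lay within 2-fold with a median of 0.29. Of these, 19 were above 0, beside 6210 of 10737 over all genes. The highest was hsp-3 (0.63), and the calreticulin gene crt-1 was at 884 RPKM in labelled elt-2 RNAi and 623 RPKM in control RNAi (0.50). The 21 cytosolic and nuclear chaperones were also all within 2-fold (median 0.20).

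The genes higher in labelled elt-2 RNAi were fewer than those lower. After thn-1 and clec-221 the highest ratios were those of phg-1 at 20.7 RPKM in labelled elt-2 RNAi and 0.159 RPKM in control RNAi (4.22), and ZK353.10, which was listed at 14.9 RPKM in labelled elt-2 RNAi and at 0 in the other 3 libraries. F58F12.4 (now glam-3) was at 30.97 and 1.53 RPKM (3.66), F15B9.6 at 76.2 and 5.94 RPKM (3.48), and hlh-12, a basic helix-loop-helix factor of the gonad, at 13.5 and 0.730 RPKM (3.07). The rest of the 15 highest were C49C3.11, cdr-4, C49C3.9, T19C9.8, F56C3.9, F58E10.7 (now droe-4), Y41C4A.11 and K10D11.5, with ratios between 2.82 and 3.12. Of all 15, 10 had both labelled libraries above both controls, the order of the hypoxia pair being fixed by the choice. By amount, W02A2.9 was at 1824 RPKM in labelled elt-2 RNAi and 354 RPKM in control RNAi under hypoxia, and at 94.6 and 37.97 RPKM in the same order in normoxia (2.36 in hypoxia). M02H5.8 was at 1315 RPKM in labelled elt-2 RNAi and 281 RPKM in control RNAi (2.22).

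Markers of the intestine differed in both directions. Of 20 loci listed as intestine markers, 17 were compared, with 4 lower, 2 higher and a median of 0.16. Of the intermediate filament genes of the gut's apical cortex, ifd-2 was at 55.1 RPKM in labelled elt-2 RNAi and 20.3 RPKM in control RNAi (1.40), and ifb-2 at 231 and 101 RPKM (1.18). The gut actin gene act-5 was at 386 RPKM in labelled elt-2 RNAi and 297 RPKM in control RNAi (0.38). The membrane linker gene erm-1, the gap junction gene inx-16 and the filament gene ifc-2 had ratios of 0.16, 0.36 and 0.33. The lower ones were mtl-1, the filament gene ifd-1, asah-1 and glo-1, with ratios of -1.93, -1.71, -1.23 and -1.199. The gut esterase gene ges-1 was at 12.1 RPKM in labelled elt-2 RNAi and 21.8 RPKM in control RNAi (-0.80). The summed level of these markers was 1157 RPKM in labelled elt-2 RNAi and 1212 RPKM in control RNAi under hypoxia. In normoxia it was 384 and 646 RPKM in the same order. The normoxia median was -0.48, with 5 of 17 lower and none higher, beside 3.6% and 1.1% over all genes. act-5 had a normoxia ratio of -0.77.

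Markers of other tissues were nearly all within 2-fold, but their medians lay on both sides of the 0.05 of all genes. None of 18 body wall muscle markers (median -0.09), 7 epidermis markers (-0.24), 8 markers of somatic gonad and coelomocytes (-0.09) or 28 germline and oocyte markers (0.20) was past 2-fold, nor was the 1 pharynx marker compared. Of 23 neuron markers rab-3 was lower (-1.34) and the median was 0.04. The median of embryo markers was -0.49, below the lower quartile of -0.17 over all genes, with 13 of 15 below 0 and 1 past 2-fold. Over all 10737 compared genes, 4527 were below 0 and 6210 above 0. Sperm markers had 3 of 59 loci compared, none past 2-fold, with a median of -0.34. Of the germline and oocyte markers, 27 of 28 were above 0, as were 27 of 28 DNA replication and cell cycle genes and 28 of 31 proteasome subunits. By summed level, germline and oocyte markers were at 11291 RPKM in labelled elt-2 RNAi and 9462 RPKM in control RNAi, and embryo markers at 128 and 196 RPKM in that order. The part of these shifts in the results above was not tested.

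Regulators of the intestine and nuclear hormone receptors had shares of lower genes near the 5.23% of all genes. Of 19 compared transcription regulators of the intestine, nhr-80 was lower (-1.18) and none was higher, with a median of -0.08. Nuclear hormone receptors had 6 lower and none higher of 145 (median 0.00). No gene was past 2-fold among 73 cytosolic ribosomal proteins (median -0.01), 31 proteasome subunits (0.11), 24 genes of sugar metabolism (0.09) or 28 DNA replication and cell cycle genes (0.14). Cuticle collagens had 5 lower and none higher of 50 (median -0.37), among them the neighbours col-92, col-93 and col-94. Of 19 insulin-like peptide genes ins-29 was lower (-1.62). Nematode-specific peptides had 5 lower and 1 higher of 32 (median 0.05) and fungus-induced protein genes 1 lower and 1 higher of 8 (median -0.08), both being families of short, similar genes.

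The normoxia pair, which shares no library with the hypoxia pair, gave a second view of the same genes. There, 387 of the 10737 genes (3.6%) were at least 2-fold lower in labelled elt-2 RNAi and 118 (1.1%) at least 2-fold higher. The genes had been filtered on their hypoxia level only. Genes seen only in normoxia were thus left out, and genes near 0 in normoxia were kept with ratios near 0. Counts and shares of the 2 pairs are therefore not like for like. In both pairs 289 genes were lower, which is 51.4% of those lower in hypoxia and 74.7% of those lower in normoxia. Higher in both were 53 genes, 25.24% of those higher in hypoxia and 44.9% of those higher in normoxia. The 562 genes lower in hypoxia had a median normoxia ratio of -1.02, with 504 below 0, and the 210 higher genes had one of 0.37, with 173 above 0. Over all compared genes the median normoxia ratio was 0.04, and Pearson's r between the ratios of the 2 pairs was 0.67 and Spearman's rho 0.43, across genes, which are not independent replicates. All 15 lowest genes of the hypoxia pair were also at least 2-fold lower in normoxia, and 9 of the 15 highest were at least 2-fold higher there.

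**Figure D4:**
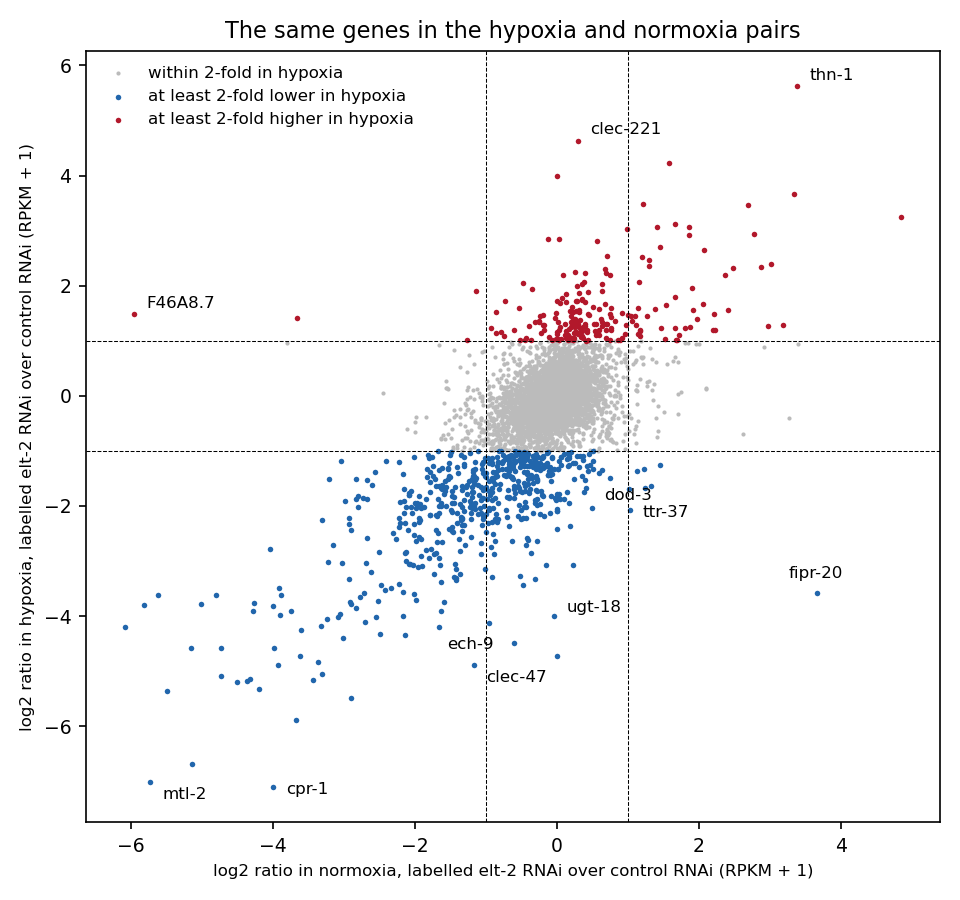
Log2 ratio (RPKM + 1) between labelled elt-2 RNAi and control RNAi in hypoxia (vertical) against that in normoxia (horizontal) for the 10737 compared genes, with dashed lines at 2-fold. Most of the 562 genes lower in hypoxia (blue) lie left of 0, mtl-2 and cpr-1 at the far end. ugt-18, ech-9 and clec-221 are far from 0 in hypoxia and within 2-fold in normoxia. Their normoxia levels were near 1 RPKM or below, where the pseudocount draws ratios towards 0. F46A8.7 and fipr-20 lie in opposite corners.

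Past 2-fold in hypoxia and within 2-fold in normoxia were 265 lower and 153 higher genes. These counts include genes near 0 in both normoxia libraries, because the level filter used the hypoxia libraries only. For such genes the pseudocount holds the normoxia ratio near 0, so normoxia could not show a difference. C36A4.10 and ZK353.10, for example, were at 0 in both normoxia libraries. Among genes averaging 5 RPKM or more, 19 were at least 4-fold lower and 8 at least 4-fold higher in hypoxia while within 1.5-fold in normoxia, and the examples that follow were chosen after their values were seen. ugt-18 was at 0.129 RPKM in labelled elt-2 RNAi and 17.05 RPKM in control RNAi under hypoxia. In normoxia it was at 0 and 0.0285 RPKM in the same order, too low to show a difference. dod-3 was at 155 RPKM in labelled elt-2 RNAi and 641 RPKM in control RNAi under hypoxia, and at 53.2 and 37.5 RPKM in the same order in normoxia. For both genes control RNAi hypoxia was the highest of the 4 libraries. smd-1, which encodes an S-adenosylmethionine decarboxylase of polyamine synthesis, was at 4.25 RPKM in labelled elt-2 RNAi and 55.98 RPKM in control RNAi under hypoxia, and at 25.9 and 36.7 RPKM in the same order in normoxia. Here labelled elt-2 RNAi hypoxia was the lowest of the 4. The ABC transporter haf-7 and cyp-33C8 were the opposite, with labelled elt-2 RNAi hypoxia the highest. Whether the ratio differs between oxygen levels has no test with 1 library per group.

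The authors' own comparison of the same 2 libraries, in the authors' deposited table, called 100 of the 10737 compared genes (0.931%), 89 lower and 11 higher in labelled elt-2 RNAi, each of them past 2-fold here. The calls compare 1 library with 1 library and so do not carry replicate error. Of these 100, the authors' deposited table for the normoxia pair also called 39, of which 38 were lower in both. Among the 15 lowest genes the authors' deposited table called cpr-1 (adjusted p = 0.0377), asp-13, clec-85, F32H5.1, C17H12.8, clec-67, gsto-1 and spp-4, and not mtl-2 (adjusted p = 0.106) or the other 6. Among the 15 highest, the authors' deposited table called thn-1, F15B9.6, cdr-4, C49C3.9, T19C9.8 and K10D11.5. The elt-2 gene was not called in the authors' deposited table (adjusted p = 0.999).

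In absolute RPKM the largest differences lay with abundant genes whose ratios were modest. The greatest drop was that of T07A5.5, a locus of 108 bp and so close to the 100 bp read length, at 13164 RPKM in labelled elt-2 RNAi and 23988 RPKM in control RNAi (log2 ratio -0.87). The ribosomal genes rpl-39, rps-29, rpl-29, rps-28 and rps-21 and C17F4.7 were also among the 10 largest drops with ratios between -0.58 and -0.26, beside spp-5, spp-3 and K06A4.7 at 842 RPKM in labelled elt-2 RNAi and 3293 RPKM in control RNAi (-1.97). Among the 10 largest gains, W02A2.9, M02H5.8 and ftn-2 were past 2-fold, and rps-27, rpl-43, rpb-12, sip-1, rpl-36, rpl-24.1 and rpl-25.2 were not. The status filter kept out Y37E3.8, listed at 0 in labelled elt-2 RNAi and 3436 RPKM in control RNAi, and sca-1, listed at 160 and 0 RPKM in that order, as failed estimates. At the edge of the filter on low values, the 5 genes just inside had means of 1.00 RPKM and ratios between -0.99 and 0.46, and the 5 just outside had means of 0.997 to 1.00 RPKM and ratios between -0.44 and 0.12.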

How the data were processed

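RNA from whole adult worms was measured by paired-end sequencing with 100 bp reads, 1 library per group, all on 1 lane per the labels' protocols, and groups were taken from the sample titles. The authors deposited RPKM per gene locus, per the file headers, in 6 tables of 1 library against another. Each library had the same values in every table (0 differing). TopHat2 2.0.8b, Cufflinks 2.1.1 and build ce10 are named in the submitters' processing notes, without their roles. Not given in the sources used here were the annotation, read filters and strand handling, so overlapping and antisense genes are uncertain. The p-value, its FDR-adjusted form and the call in each table are the authors' own, per the file headers.

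Log2 ratios of (RPKM + 1) were computed with Python 3.11.15, pandas 2.3.3 and numpy 2.4.6 and checked on simulated data. The pseudocount understates the change of low genes. Genes were counted past 2-fold with no test. Of compared genes, 8188 of 10737 matched current transcripts by accession in the WBcel235 name tables, used for names only, and 134 descriptive names were replaced. All columns of per-sample values were used (0 left out). The value of 1 read, from low RPKM (below 0.3), was about 0.894 in labelled elt-2 RNAi relative to control RNAi under hypoxia, with no sharp step (31 of 1917 low genes), so relative depth is approximate.

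Named genes are elt-2, the 15 highest and 15 lowest ratios among genes averaging 5 RPKM or more, the 10 largest rises and falls in RPKM, the members of each list (all where 10 or fewer, otherwise the 4 largest absolute ratios and the 2 most abundant), and 5 loci either side of the filter. Other genes in the text were chosen after their values were seen. The members and the 48 lists (39 gene groups, 9 sets of cell type markers) were chosen with earlier results of these data known. Alternatives were other pseudocounts, filters, centring, thresholds and status rules. GATA motifs in promoters were not searched, since no sequence was used here.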

Additional observations from a re-analysis of the deposited data

Results flagged for a closer look

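In 12 genes the ratio between labelled elt-2 RNAi and control RNAi was past 2-fold in opposite directions in hypoxia and normoxia. The figure for each is the hypoxia log2 ratio minus the normoxia log2 ratio. With 1 library per group the difference was not tested. Lower in labelled elt-2 RNAi under hypoxia and higher in normoxia were fipr-20 (-7.25), ttr-37 (-3.10), H23N18.5 (-2.97), F45E12.6 (-2.91), Y38E10A.15, now nspe-7 (-2.72), clec-60 (-2.70), K07A12.8 (-2.55) and gst-24 (-2.50). Higher under hypoxia and lower in normoxia were F46A8.7 (7.44), F09C8.1 (5.06), C29F9.12 (3.03) and F22E5.1 (2.28).

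The gene with the largest such difference, a copy of F46A8.7, was at 950.3 RPKM in labelled elt-2 RNAi and 340 RPKM in control RNAi under hypoxia, and at 0 and 61.1 RPKM in the same order in normoxia. Its locus is 111 bp long, near the read length, and a second locus is listed under the same name. fipr-20 has a locus of 129 bp and was listed at 0 in labelled elt-2 RNAi and 10.97 RPKM in control RNAi under hypoxia, and at 11.7 and 0 RPKM in the same order in normoxia. Longer loci among the 12 include F09C8.1 (3901 bp), at 11.104 RPKM in labelled elt-2 RNAi and 3.57 RPKM in control RNAi under hypoxia and at 1.17 and 26.4 RPKM in normoxia. The glutathione S-transferase gene gst-24 was at 9.35 RPKM in labelled elt-2 RNAi and 25.8 RPKM in control RNAi under hypoxia, and at 48.3 and 21.5 RPKM in normoxia.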

How the results depend on the processing

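Of the 210 higher and 562 lower genes, a pseudocount of 5 RPKM left 88 and 327, a threshold of 4-fold 38 and 220, and a mean of at least 5 RPKM 143 and 368; a larger pseudocount shrinks low genes' ratios and the other settings count fewer genes by construction. With a pseudocount of 0.1 RPKM, no filter, a filter on all 4 libraries, centring on the median gene, loci of several genes kept or the status OK only, the counts lay between 183 and 306 and between 541 and 705. The median of all genes lay between 0.00 and 0.08. Without a filter, 5 of 46 list medians shrank by over 1.5-fold, to -0.07 for C-type lectins, -0.75 for aspartic proteases, -1.07 for cathepsin-like proteases, -0.86 for lysozymes and -1.07 for saposin-like proteins. With a mean of at least 5 RPKM the lysosomal lipase median became -1.34. Of 285 named genes, the ratios of 64 moved by over 1.5-fold with a pseudocount of 5 RPKM and of 40 with 0.1 RPKM, and none did under the other alternatives. No list median or named gene past 2-fold changed sign under the alternatives run; the medians of ABC transporters, nutrient transporters, neuron markers, nuclear hormone receptors and vitellogenins and the genes nlp-27, opt-1, pbs-1 and vit-4 did, from ratios between -0.08 and 0.05. No paired analysis was possible because each group has 1 library and the labels carry no replicate numbers, and no replicate could be left out. The motif search in promoters was not run. Depth in reads is unknown, which limits statements on genes near 1 RPKM most.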

Other observations

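The genes that differed were unevenly spread over the chromosomes. On chromosome V, 155 of 1958 compared genes (7.92%) were lower by 2-fold or more in labelled elt-2 RNAi under hypoxia and 72 (3.68%) at least 2-fold higher. Chromosome X had 6.47% lower and 2.35% higher, and chromosome I had the smallest shares of the 6, at 2.29% lower and 0.600% higher. No test of this spread was made.

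Lower genes also lay side by side. There were 14 runs of at least 3 compared neighbours that were all at least 2-fold lower in hypoxia, with 46 of the 562 lower genes. The number of runs to be had from position alone was not tested, and runs of higher genes were not counted. The longest was the saposin-like cluster from spp-3 to spp-5 (chromosome X, 7314921 to 7320338, ce10), with 5 genes at ratios between -4.88 and -1.62. Runs of 4 were F49F1.1 to F49F1.7 on chromosome IV, which include infection-response genes, and Y39G8B.9 to F01D5.3 on chromosome II. Runs of 3 included C17H12.8 with its neighbours C17H12.6 and H20E11.3, the CUB-like genes C32H11.9, dod-21 and dod-24, and clec-84 to clec-85. Neighbours in a run can be copies of each other that share reads, as for the 3 loci listed as F45D11.14.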
